A study of Mus musculus with 3 samples.

Results

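The 45 genes described here are members of the cell cycle programme, out of 31053 genes counted in hippocampal myeloid cells of the mouse. They were chosen by symbol, with earlier results of these data known. They form an S list of 11 genes of DNA replication (Mcm2, Mcm3, Mcm4, Mcm5, Mcm6, Mcm7, Pcna, Rrm1, Rrm2, Tyms and Tk1) and a G2/M list of the 34 other genes, most of them genes of mitosis. All 45 symbols were found in the files, and their phase pattern, their detection in the same cells and the cell populations that hold them were read in each of 3 single-cell sequencing runs.

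The study measured RNA of single cells sorted for the red fluorescent reporter tdTomato from both hippocampi of 12 mice (6 male and 6 female), with droplet libraries made by the 10x Genomics method. Every run carried the same genotype, Cx3cr1CreERT2/+, Rosa26tdTomato/+ and NestinTK-eGFP/+. The Cx3cr1 gene drives a Cre recombinase that tamoxifen activates, which restricts the reporter to cells with Cx3cr1 activity at the time of dosing (100 mg/kg on each of 4 days), so microglia and other Cx3cr1-expressing myeloid cells can carry it. Mice were perfused with PBS, the hippocampi were dissected, myelin was removed magnetically and viable microglia were enriched by flow cytometry. The NestinTK-eGFP allele was present in every run, no treatment acting on it is named in the labels, and no run lacked the reporter, the tamoxifen or that allele, so the runs form a single group with no control group. The labels do not assign the 12 animals to runs, nor give their age. The p-values below therefore set the difference between cell classes of the same run against its variation over 3 runs, which may be partly technical. That variation was estimated largely from all genes together rather than from each gene alone.

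Cells copy their DNA in S phase and divide it in mitosis, after a gap called G2. Genes for replication are transcribed from late G1 under E2F factors, while most mitotic genes follow in G2 and M through CHR and CCAAT promoter elements, which bind the DREAM and B-MYB-FOXM1 complexes and NF-Y. Microglia, the resident macrophages of the brain parenchyma, are long-lived and renew themselves by local division, so few of them are in cycle in the healthy adult brain.

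The deposited barcodes numbered 7255, 6895 and 6226 in runs 1, 2 and 3 and held 34140879, 24717907 and 24225612 unique molecular identifiers (UMIs), each marking 1 captured RNA molecule. Of these, 6993, 6720 and 6078 cells passed the minimum of 1000 UMIs and 500 genes with mitochondrial UMIs at 10% or less, with a median depth of 4425, 3438 and 3696 UMIs. Runs shared 7, 8 and 8 barcode sequences in pairs and none across all 3. Microglia markers were widespread, since 99.4% of cells outside the cell cycle gates carried UMIs of at least 4 of 10 of them, among them P2ry12, Tmem119, Sall1 and Cx3cr1. This rule does not single out microglia. It was also met by 142 of 171 cells with border-associated macrophage markers and 31 of 65 with choroid plexus markers.

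Promoter sequences give a view of the 2 lists by motif rather than by RNA count. The lists themselves were chosen with earlier results of these data known. Windows of 300 bases (250 before and 50 after the start site, RefSeq, GRCm38.p6) were found for 38 of the 45 genes, and 7 had none in the table (Aurkb, Ccna2, Kif20a, Mcm4, Mybl1, Stmn1 and Tpx2). The motifs searched, on both strands, were the CHR element TTTGAA, the NF-Y element CCAAT and the E2F element in the forms TTTCCCGC or TTTGGCGC, none of which contains another. A window stands below for each of 5 genes that the results turn on, with matches in capitals: Ccnb2 and Cdk1 for the cyclin B kinase, Cenpa for the centromere, Mcm6 for the replicative helicase, and Pclaf, a G2/M list gene whose window matched the E2F motif. The positions are chr9:70421505-70421804 (minus strand) for Ccnb2, chr10:69352863-69353162 (minus) for Cdk1, chr5:30666636-30666935 (plus) for Cenpa, chr1:128359656-128359955 (minus) for Mcm6 and chr9:65890073-65890372 (plus) for Pclaf, each spanning the start that RefSeq gives.
Ccnb2: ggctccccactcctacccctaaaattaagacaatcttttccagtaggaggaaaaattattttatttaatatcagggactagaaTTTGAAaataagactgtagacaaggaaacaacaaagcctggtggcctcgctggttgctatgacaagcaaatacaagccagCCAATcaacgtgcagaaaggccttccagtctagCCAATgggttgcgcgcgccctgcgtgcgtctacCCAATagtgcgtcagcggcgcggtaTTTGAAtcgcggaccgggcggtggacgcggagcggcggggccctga
Cdk1: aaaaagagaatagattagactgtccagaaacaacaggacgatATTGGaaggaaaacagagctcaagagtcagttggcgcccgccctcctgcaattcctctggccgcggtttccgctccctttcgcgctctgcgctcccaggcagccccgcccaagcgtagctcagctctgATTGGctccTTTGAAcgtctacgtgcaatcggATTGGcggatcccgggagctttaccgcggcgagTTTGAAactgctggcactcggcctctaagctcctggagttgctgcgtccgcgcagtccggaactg
Cenpa: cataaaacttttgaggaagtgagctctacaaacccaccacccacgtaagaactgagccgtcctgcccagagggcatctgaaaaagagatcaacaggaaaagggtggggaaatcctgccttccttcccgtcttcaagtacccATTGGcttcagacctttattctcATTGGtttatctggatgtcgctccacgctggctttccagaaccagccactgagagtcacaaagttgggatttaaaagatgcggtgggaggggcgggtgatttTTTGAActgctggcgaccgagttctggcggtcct
Mcm6: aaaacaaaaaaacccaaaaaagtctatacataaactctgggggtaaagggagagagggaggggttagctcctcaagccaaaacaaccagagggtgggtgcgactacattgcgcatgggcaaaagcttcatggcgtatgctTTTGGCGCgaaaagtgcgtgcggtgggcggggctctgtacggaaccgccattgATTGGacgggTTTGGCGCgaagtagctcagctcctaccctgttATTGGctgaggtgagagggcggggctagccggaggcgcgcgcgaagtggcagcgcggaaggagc
Pclaf: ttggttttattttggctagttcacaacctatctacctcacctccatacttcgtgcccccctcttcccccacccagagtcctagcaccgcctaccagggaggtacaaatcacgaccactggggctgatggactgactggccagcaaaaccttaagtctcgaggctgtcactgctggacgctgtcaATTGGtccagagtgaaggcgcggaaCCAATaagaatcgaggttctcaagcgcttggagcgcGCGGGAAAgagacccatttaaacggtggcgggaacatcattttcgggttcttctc

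The CHR motif occurred in the windows of 19 of 28 G2/M list genes (67.9%) and of 1 of 10 S list genes (10.0%, Mcm2), against 20.2% of 27025 genes with a window. The CCAAT motif occurred in 23 of 28 (82.1%) and 8 of 10 (80.0%), against 41.1% of all genes. An E2F form was found in 4 of 10 S list genes (40.0%: Mcm3, Mcm5, Mcm6 and Mcm7) and in 1 of 28 G2/M list genes (3.57%, Pclaf), against 1.80% of all genes. CHR and CCAAT stood in 1 window in 19 of the 28 G2/M list genes, against 7.97% of all genes. None of the 3 motifs matched in the windows of Birc5, Nusap1, Melk, Mxd3, Sapcd2, Tyms and Tk1, which says only that these letters are not there.

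**Figure D1:**
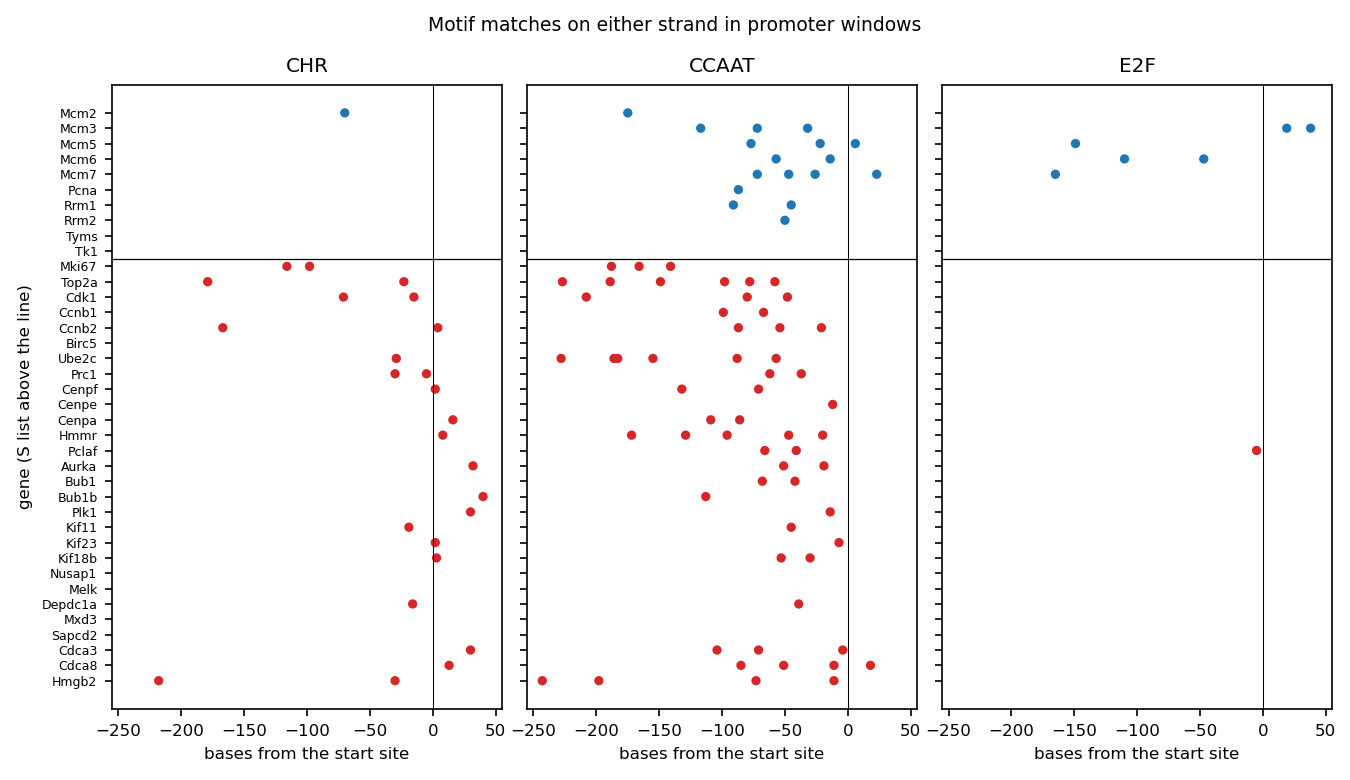
Position of each motif match in the promoter windows of 38 genes, in bases from the start site (x axis, vertical line at 0), with 1 row per gene, the S list above the horizontal line and the G2/M list below it. CHR matches sit almost wholly among G2/M genes and E2F matches among S genes, while CCAAT matches occur in both lists.

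To class cells by these genes, 11 of the 45 served as anchors. A cell was called G2/M-gated when at least 2 of 6 anchors had a UMI (Mki67, Top2a, Cenpf, Ube2c, Birc5 and Ccnb2), S-gated when at least 2 of 5 had one (Mcm3, Mcm5, Rrm2, Tyms and Tk1) and the G2/M gate was not met, and ungated otherwise. The 34 genes that set no gate are called held-out below and carry the tests, while each anchor is described without a test, in gates rebuilt without it. The gates are named for their anchors and do not fix the phase of a cell. Of the 79 G2/M-gated cells, 46 also met the S anchors, and 40.1% of S-gated cells held none of the 6 held-out S list genes. G2/M-gated cells numbered 41, 17 and 21 in runs 1, 2 and 3, or 0.586%, 0.253% and 0.346% of cells (mean 0.395% ± 0.172, SD, n = 3). Run 1 held the highest share, and its exact 95% binomial interval of 0.421% to 0.795% did not overlap that of run 2, 0.147% to 0.405%. Such intervals cover counting error only.

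S-gated cells numbered 173, 109 and 92, or 2.47%, 1.62% and 1.51% of cells (mean 1.87% ± 0.526, SD, n = 3). This gate rested mainly on Mcm3, which 341 of the 374 S-gated cells held (91.2%), and on Tyms, held by 250 (66.8%). Mcm3 and Tyms alone admitted 189 of the cells (50.5%), whereas Rrm2 was present in 5 (1.34%). Both of those leading anchors were also found in ungated cells, and the S-gated share fell to 0.375% when Mcm3 was left out, to 0.247% when at least 3 anchors were asked for and to 0.583% when each cell was thinned to 2000 UMIs. The median depth was 6736 UMIs in G2/M-gated, 5036 in S-gated and 3822 in ungated cells, and the part of depth in who passed the gates was not tested beyond that thinning. The G2/M-gated share moved by less than the spread between runs under every alternative that was run for it.

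Among ungated cells, the 2 lists differed in how widely their genes were detected. Genes of the G2/M list had a UMI in a median of 0.119% of ungated cells, and 30 of the 34 were under 1%. The median S list gene was found in 3.44% of ungated cells, and 4 of 11 exceeded 5% (Mcm3, Mcm7, Pcna and Tyms). Only 2 genes of the S list, Rrm2 and Tk1, were under 1%, and only 2 of the G2/M list, Hmgb2 and Stmn1, were over 5%. A median of 83.9% of a G2/M list gene's UMIs lay in the 79 G2/M-gated cells, and 29 of 34 genes had over 50% there, against a median of 8.27% for the S list.

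**Figure D2:**
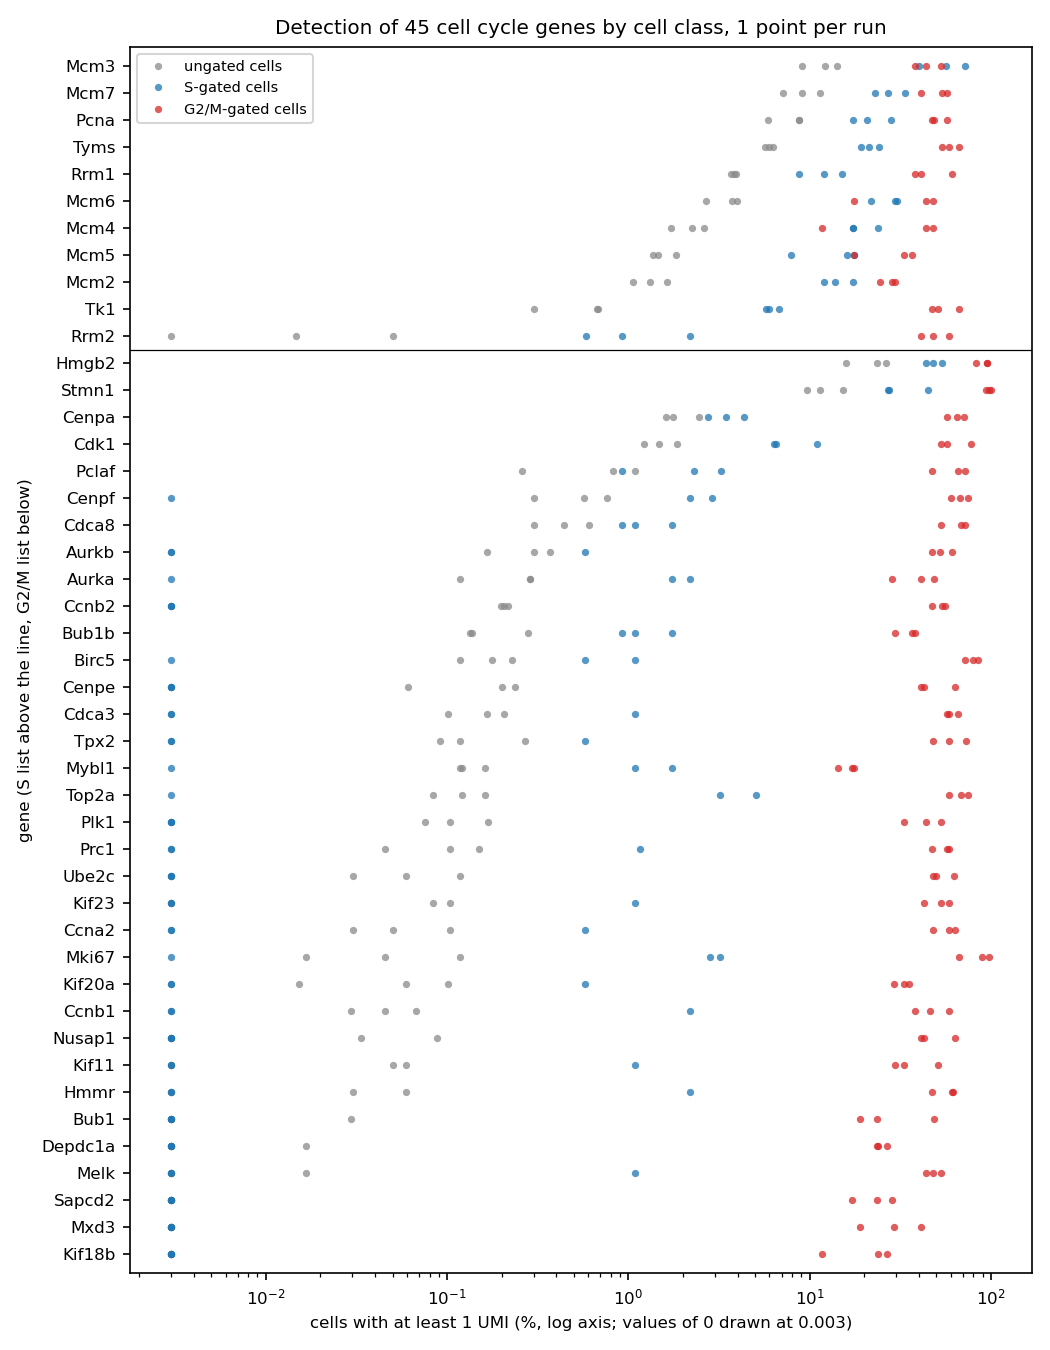
Share of cells with at least 1 UMI (x axis, percent, log scale, with 0 drawn at 0.003) for each of the 45 genes (rows), with 1 point per run for ungated, S-gated and G2/M-gated cells, anchors being shown in gates rebuilt without them. G2/M list genes lie under 1% in ungated cells of each run except Hmgb2, Stmn1, Cenpa, Cdk1 and, in run 1, Pclaf, and each S list gene was more often detected in S-gated and G2/M-gated than in ungated cells.

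The 6 Mcm genes encode the subunits of the replicative helicase, which opens the DNA at replication forks. Mcm2 was detected in 1.64%, 1.32% and 1.06% of ungated cells in runs 1, 2 and 3, in 17.3%, 13.8% and 12.0% of S-gated cells, and in 24.4%, 29.4% and 28.6% of G2/M-gated cells. Its level was 3.75, 3.98 and 2.77 CPM (counts per 1000000 UMIs of the class) in ungated, 30.3, 33.4 and 37.0 CPM in S-gated and 45.8, 63.2 and 55.3 CPM in G2/M-gated cells. The 3 classes of cell did not overlap over the runs for Mcm2 on either scale.

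Mcm6 was at 9.81, 7.87 and 9.95 CPM in ungated cells, at 76.2, 76.0 and 84.4 CPM in S-gated cells, and at 103.7, 27.1 and 116.7 CPM in G2/M-gated cells. Run 2 was the exception in the G2/M gate, where 3 UMIs of Mcm6 were counted in 17 cells, so S-gated and G2/M-gated values overlapped. Mcm4 showed the same dip, with 91.5, 27.1 and 110.5 CPM in G2/M-gated cells against 47.5, 40.8 and 47.3 CPM in S-gated cells, and run 2 again held 3 UMIs. Mcm7 was the most widely detected held-out helicase gene in ungated cells, at 11.3%, 7.10% and 9.10% of cells, and rose to 33.5%, 22.9% and 27.2% of S-gated cells.

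The 2 anchors of this complex were read in gates built without them. Mcm3 stood at 36.4, 38.9 and 25.5 CPM in ungated cells, 184, 294 and 142 CPM in S-gated cells and 94.6, 135 and 79.8 CPM in G2/M-gated cells. Its S-gated level was thus above its G2/M-gated level in every run. The S gate rebuilt without Mcm3 held only 37, 18 and 20 cells, against 173, 109 and 92 for the held-out Mcm genes. Its order of classes is therefore not comparable with theirs. Mcm5 was found in 17.5%, 16.0% and 7.94% of S-gated and in 36.6%, 17.6% and 33.3% of G2/M-gated cells, against 1.83%, 1.37% and 1.45% of ungated cells.

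Pcna encodes the sliding clamp that holds DNA polymerase on its template. Its level was 20, 17.1 and 23.9 CPM in ungated cells, 40.2, 40.8 and 80.2 CPM in S-gated cells and 207, 144 and 147 CPM in G2/M-gated cells. The classes did not overlap, and run 3 was the highest of the S-gated values.

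Rrm1 and Rrm2 encode the large and the small subunit of ribonucleotide reductase, which makes the deoxynucleotides for DNA synthesis, and the 2 genes were distributed unlike each other. Rrm1 was found in 3.91%, 3.70% and 3.84% of ungated cells, in 15.03%, 11.9% and 8.70% of S-gated cells and in 61.0%, 41.2% and 38.1% of G2/M-gated cells. Rrm2 was found in 0.0148%, 0% and 0.0503% of ungated cells, in 0.581%, 0.917% and 2.17% of S-gated cells and in 58.5%, 41.2% and 47.6% of G2/M-gated cells. Rrm2 therefore had 95.1% of its 162 UMIs in G2/M-gated cells, a share otherwise seen in the G2/M list. With 154 UMIs there against 4 in ungated cells, the ratio of its CPM was 5078.

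Tyms and Tk1 encode thymidylate synthase and thymidine kinase, the de novo and the salvage route to thymidine nucleotides. Tyms was at 14.2, 16.7 and 16.1 CPM in ungated cells and at 204, 325 and 246 CPM in G2/M-gated cells. Tk1 was at 1.43, 0.921 and 1.79 CPM in ungated cells, at 10.5, 21.3 and 11.01 CPM in S-gated cells and at 165, 397 and 258 CPM in G2/M-gated cells. Tk1 had 50.4% of its UMIs in G2/M-gated cells and Tyms 9.92%.

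Cdk1 is the kinase that drives entry into mitosis, and Ccna2, Ccnb1 and Ccnb2 encode its cyclin partners. Cdk1 was at 4.06, 4.19 and 3.24 CPM in ungated cells of runs 1, 2 and 3, at 11.5, 24.1 and 20.6 CPM in S-gated cells and at 354, 370 and 362 CPM in G2/M-gated cells. The 3 classes did not overlap, and the G2/M-gated values lay close together. Ccnb1 was at 0.188, 0.126 and 0.171 CPM in ungated cells and at 146, 199 and 233 CPM in G2/M-gated cells, with all 3 of its S-gated UMIs in run 3. Ccna2 was at 0.219, 0.0837 and 0.128 CPM in ungated cells and at 211, 271 and 209 CPM in G2/M-gated cells, with 1 UMI in all S-gated cells. Ccnb2, an anchor, had no UMI in S-gated cells of any run and 226, 285 and 261 CPM in G2/M-gated cells. Cdk1 was thus the member of this group with the widest reach, with 38.6% of its UMIs in G2/M-gated cells against 91.1% for Ccna2 and 87.1% for Ccnb1.

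The mitotic kinases followed the cyclins. Aurkb, the kinase of the chromosomal passenger complex that corrects chromosome attachment, was at 0.781, 0.461 and 0.768 CPM in ungated cells and at 180, 289 and 184 CPM in G2/M-gated cells. Its partners in that complex were as restricted, with Birc5 (survivin, an anchor) at 428, 525 and 368 CPM and Cdca8 (borealin) at 363, 289 and 282 CPM in G2/M-gated cells. Aurka and Plk1, kinases of centrosome maturation and spindle assembly, reached 91.5, 126 and 79.8 CPM and 94.6, 135 and 135 CPM there. Ungated values of these genes stayed under those of the G2/M gate in every run.

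Bub1 and Bub1b, kinases of the spindle checkpoint, and Melk, a kinase of dividing cells, were rarer. Bub1 had 46 UMIs in G2/M-gated cells and 2 in ungated cells (ratio of CPM 3033, 95% interval 793 to 25797), and Melk had 59 and 1 (ratio 7781, interval 1343 to 312489). The width of these intervals reflects the 1 to 3 UMIs counted outside the gate. Bub1b was at 97.6, 54.2 and 104 CPM in G2/M-gated cells and at 0.656, 0.377 and 0.384 CPM in ungated cells.

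The motor proteins of the spindle had at most 1 UMI in S-gated cells. Kif18b, a kinesin of spindle positioning, had 25 UMIs in G2/M-gated cells (15, 2 and 8 in runs 1, 2 and 3) and none in S-gated or ungated cells, which makes it at least 1099-fold higher than in ungated cells when 3 UMIs are allowed over that class. Kif11, the motor that separates the spindle poles, was at 183, 117 and 129 CPM in G2/M-gated cells. Kif23 and Kif20a, motors of the central spindle and cytokinesis, were at 180, 144 and 196 CPM and at 51.9, 108 and 55.3 CPM. Kif11, Kif23 and Kif20a each had 1 UMI in all S-gated cells. Cenpe, the motor of the kinetochore, was at 186, 144 and 123 CPM in G2/M-gated cells and had no UMI in S-gated cells.

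Genes of spindle assembly and of the anaphase followed the same order. Prc1, which bundles the central spindle, was at 394, 352 and 430 CPM in G2/M-gated cells, Tpx2, an activator of the Aurora A kinase, at 232, 244 and 190 CPM, and Nusap1, a microtubule binder, at 290, 271 and 246 CPM. Hmmr, a spindle pole protein, reached 275, 217 and 344 CPM there and had 6 UMIs in ungated cells of runs 1 and 2 and none in run 3. Ube2c, the ubiquitin-conjugating enzyme of the anaphase-promoting complex and an anchor, was at 426, 412 and 792 CPM, and Cdca3, a trigger of mitotic entry, at 226, 289 and 172 CPM. None of Nusap1, Ube2c and Cenpe was found in any S-gated cell.

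At the centromere, Cenpa and Cenpf differed in reach. Cenpa, the histone H3 variant that marks centromeres, was found in 2.46%, 1.61% and 1.76% of ungated cells, in 3.47%, 2.75% and 4.35% of S-gated cells and in 70.7%, 64.7% and 57.1% of G2/M-gated cells. Cenpf, an outer kinetochore protein and an anchor, was found in 0.767%, 0.303% and 0.570% of ungated cells and in 67.5%, 75.0% and 60% of G2/M-gated cells. The G2/M-gated values of both genes lay above all other classes in every run.

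The proliferation marker Mki67 and the topoisomerase Top2a are both anchors. Mki67 was found in 0.118%, 0.0455% and 0.0168% of ungated cells and in 97.1%, 66.7% and 88.9% of cells gated by the other anchors. Top2a was found in 0.162%, 0.121% and 0.0838% of ungated cells and in 75.0%, 58.8% and 68.4% of gated cells. In S-gated cells both had UMIs in runs 1 and 3 and none in run 2.

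Hmgb2, a chromatin protein, and Stmn1 (stathmin, which destabilises microtubules) were the broad members of the G2/M list. Hmgb2 was found in 23.5%, 15.8% and 26.4% of ungated cells, in 53.8%, 44.0% and 47.8% of S-gated cells and in 95.1%, 82.4% and 95.2% of G2/M-gated cells. Stmn1 was found in 15.2%, 9.65% and 11.5%, in 45.1%, 27.5% and 27.2%, and in 97.6%, 94.1% and 100% of the same classes. In CPM, Stmn1 stood at 39.3, 31.0 and 34.2 in ungated and at 2008, 2239 and 1664 in G2/M-gated cells, and the classes did not overlap for either gene.

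Pclaf, a PCNA-associated factor, was at 2.38, 0.712 and 2.09 CPM in ungated cells, at 3.28, 1.85 and 10.3 CPM in S-gated cells and at 372, 280 and 442 CPM in G2/M-gated cells. Of the 2 transcription factors, Mybl1 (A-MYB) was found in 17.1%, 17.6% and 14.3% of G2/M-gated cells, and Mxd3, a MAX partner, had 41 UMIs there and none in S-gated or ungated cells (at least 1802-fold higher than in ungated cells). Sapcd2, linked to spindle orientation, had 21 UMIs there and none outside (at least 923-fold higher), and Depdc1a had 29 there and 1 in ungated cells (ratio 3825, interval 634 to 156212). Of the 45 genes, 20 overlap another gene in the annotation, including Prc1 with Rccd1, Pclaf with Trip4, Tk1 with Gm20708 and Kif20a with Cdc23, all on opposite strands, and how the counting used strand is not given in the sources used here.

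For the held-out genes, G2/M-gated cells were compared with ungated cells by edgeR's quasi-likelihood test on UMIs summed per run and class, blocked by run, with p-values adjusted by Benjamini and Hochberg's method across every gene in the fit. All 34 held-out genes were higher in G2/M-gated cells, at adjusted p values of at most 7.5e-13, where 9.93% of 11484 genes were called higher. Kif18b, Mxd3 and Sapcd2 had no ungated UMI, Melk and Depdc1a had 1 and Bub1 had 2. These genes passed the filter on low counts through their G2/M-gated UMIs, so their direction was set once they could be tested. Most other G2/M list genes were also too rare in ungated cells to pass from that class, as Ccnb1 at 0.188, 0.126 and 0.171 CPM. Their direction was largely set in the same way. The exceptions were Cdk1, Cenpa, Cdca8, Stmn1 and Hmgb2, and the 6 S list genes were also frequent enough in ungated cells. The same limit holds where the comparison is repeated below. The median log2 difference was 8.96 for the 28 G2/M list genes (lowest 4.55 for Hmgb2) and 3.40 for the 6 S list genes (2.46 for Mcm7 to 3.80 for Mcm2), beside a median of -0.14 over all genes tested. With the 3 genes that had no ungated UMI set at their bounds, the G2/M list median was also 8.96. Cdk1 was higher by 6.43 (SE 0.22), Cenpa by 6.09 (SE 0.21) and Pclaf by 7.59 (SE 0.23), each in all 3 runs.

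The comparison was repeated without the 46 G2/M-gated cells that also met the S anchors, a removal that itself selects against S list expression. Of the 26 held-out genes that could be tested with the 33 cells left, 20 were higher, where 2.13% of 11263 genes were called higher. The 6 that did not pass were the S list genes, with log2 differences from 0.04 (Mcm7) to 1.69 (Rrm1). The 20 that passed were G2/M list genes.

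In S-gated against ungated cells, all 6 held-out S list genes were higher by the same edgeR test, where 1.66% of 11697 genes were called higher. Their log2 differences were 3.15 (SE 0.29) for Mcm2, 3.01 (SE 0.18) for Mcm6, 2.88 (SE 0.23) for Mcm4, 1.56 (SE 0.14) for Mcm7, 1.24 (SE 0.18) for Pcna and 1.21 (SE 0.25) for Rrm1, at adjusted p values of at most 0.0021. Pcna and Rrm1 were not called when the run was not kept as a block, and Rrm1 was not called without run 1.

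Of the 28 held-out G2/M list genes, 7 had enough counts for this S-gated comparison. Stmn1 was higher by 2.14 (SE 0.10), Cdk1 by 2.08 (SE 0.36, adjusted p = 3.0e-04 by edgeR) and Hmgb2 by 1.17 (SE 0.10). Cenpa (0.25), Pclaf (1.24), Bub1b (2.00) and Cdca8 (0.95) were not called, with adjusted p values of 0.91, 0.45, 0.43 and 0.74 by edgeR. Pclaf was called with the narrower S gates, at a log2 difference of 4.58 with at least 3 anchors and 4.81 with the gate at 2000 UMIs. The 21 genes left out had too few UMIs in S-gated cells for a test, which does not show that they were absent.

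G2/M-gated and S-gated cells were also compared directly. All 25 testable G2/M list genes were higher in G2/M-gated cells, where 12.4% of 6131 genes were called higher, with a median log2 difference of 7.65 that became 6.82 when the 6 genes without an S-gated UMI were set at their bounds. Those 6 genes could be tested only through their G2/M-gated UMIs, so their direction was set in advance. It was largely set for the other G2/M list genes too, except Stmn1 and Hmgb2. Only these had S-gated counts high enough to pass the filter on low counts from that class. Of the S list, Rrm1 also passed partly through its G2/M-gated counts. Ccna2, Aurkb, Kif11, Kif20a, Kif23, Melk and Cdca3 had 1 S-gated UMI each. Kif18b, Sapcd2 and Mybl1 could not be tested. Nusap1, with 165 UMIs against none, was at least 205-fold higher.

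The S list split in this direct comparison. Rrm1 was higher in G2/M-gated cells by 2.65 (SE 0.28) on the log2 scale, Pcna by 1.84 (SE 0.23), Mcm7 by 0.96 (SE 0.21) and Mcm4 by 0.87 (SE 0.29, adjusted p = 0.028 by edgeR). Mcm2 (0.70, SE 0.34, adjusted p = 0.16) and Mcm6 (0.25, SE 0.25, adjusted p = 0.55) did not pass the edgeR test. Mcm4 was not called by DESeq2, without the block, without the filter on low counts, without run 1 or without run 3 (log2 differences of 0.69, 0.89, 0.80, 0.71 and 0.65). Mcm7 was not called by DESeq2, without run 1 or with the gate at 2000 UMIs (0.94, 0.92 and 0.06). The Mcm values also depended on the gate. With at least 3 anchors Mcm4 and Mcm7 were at -0.15 and -0.40 and Mcm6 at -1.49 (adjusted p = 6.1e-05 by edgeR), and without the cells that met both sets of anchors, which removes cells for their S anchors, Mcm4, Mcm7, Mcm6 and Pcna were at -2.05, -1.26, -2.26 and -0.59.

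The genes were then counted in the same cells. Since each gate fixes at least 2 genes of its own list, held-out genes are counted here. A G2/M-gated cell held a median of 15 of the 28 held-out G2/M list genes (0 to 28) and 3 of the 6 held-out S list genes. An S-gated cell held a median of 1 (0 to 8) and 1, and 40.1% of S-gated cells held none of the 6. An ungated cell held none of either at the median, with at most 4 and 5. With anchors included, 59 cells (33, 11 and 15 in runs 1, 2 and 3) held 10 or more G2/M list genes, and each of them met the G2/M gate. A single gene was a weak sign of such a cell, since 36.2% of all cells held at least 1 of the 34 genes, and 7.80% did once Stmn1 and Hmgb2 were left out. Of the 147 cells with at least 5 S list genes, 30.6% were G2/M-gated.

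**Figure D3:**
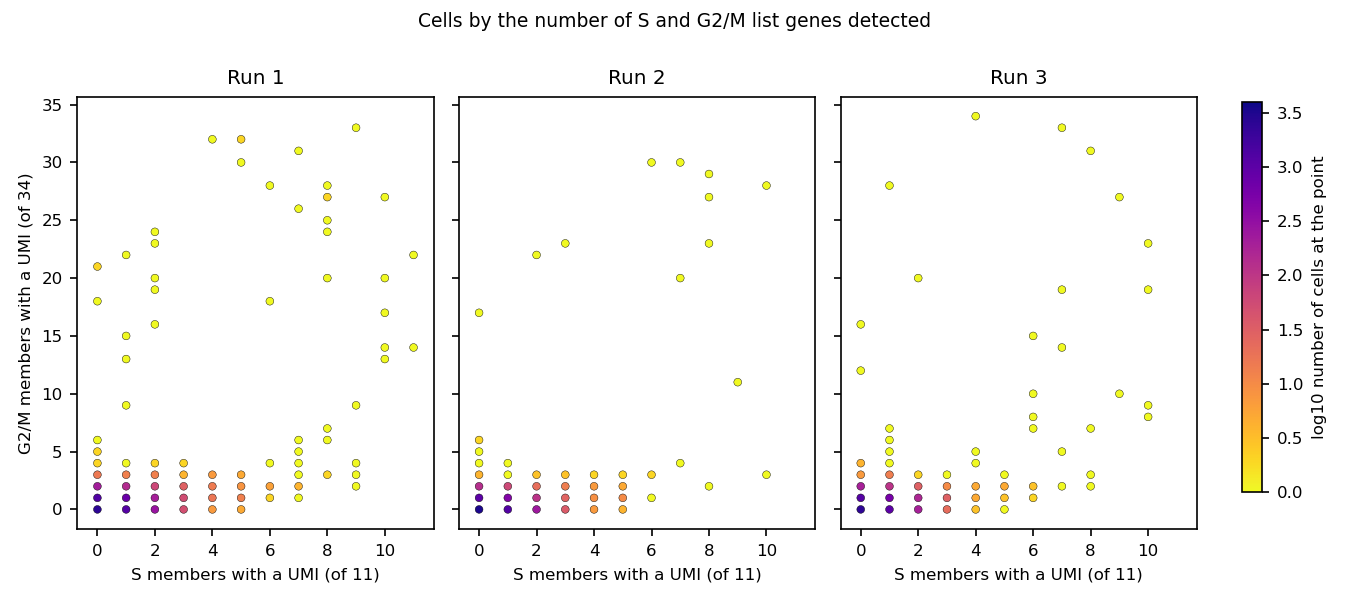
Cells of each run by the number of S list genes (x axis, of 11) and of G2/M list genes (y axis, of 34) with at least 1 UMI, coloured by the log10 number of cells at each point. Most cells sit at the lower left, and the 59 cells with 10 or more G2/M list genes range from 0 to 11 S list genes in run 1 and from 0 to 10 in runs 2 and 3.

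Co-detection of gene pairs was set beside the number of cells expected from the 2 genes' own shares per run, as a description, since pairs share cells and depth. Among 561 pairs within the G2/M list the median ratio of observed to expected cells was 106, and a median of 21.4% of the cells with either gene held both. Among 55 pairs within the S list the ratio was 3.13 and the shared cells 5.44%, and among 374 pairs between the lists the ratio was 8.15 and the shared cells 2.86%. After thinning to 2000 UMIs per cell the ratios were 119, 3.13 and 6.23.

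The pairs with the highest overlap were Ube2c with Hmmr (52.8% of cells with either, 38 cells), Hmmr with Melk (52.5%, 32 cells) and Rrm2 with Nusap1 (50%, 33 cells). Rrm2 was the S list gene most often found with mitotic genes, at a median ratio of 149 with the G2/M list against 14.7 with its own list. Tk1 followed, at 45.1 against 6.41. Mcm2 shared most with Mcm5 (10.4% of cells with either, 66 cells), and its ratios were 10.3 with the G2/M list and 4.83 with the S list. Hmgb2 and Stmn1 had the lowest median ratios with the rest of the G2/M list, at 3.23 and 5.11, and Cenpa (21.3), Cdk1 (30.0) and Pclaf (43.8) lay between these and the others. Since Hmgb2 and Stmn1 were found in 22.6% and 12.9% of all cells, the ceiling of their ratios was low. The order of genes by ratio, that of Rrm2 included, thus follows in part how rare each gene is.

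**Figure D4:**
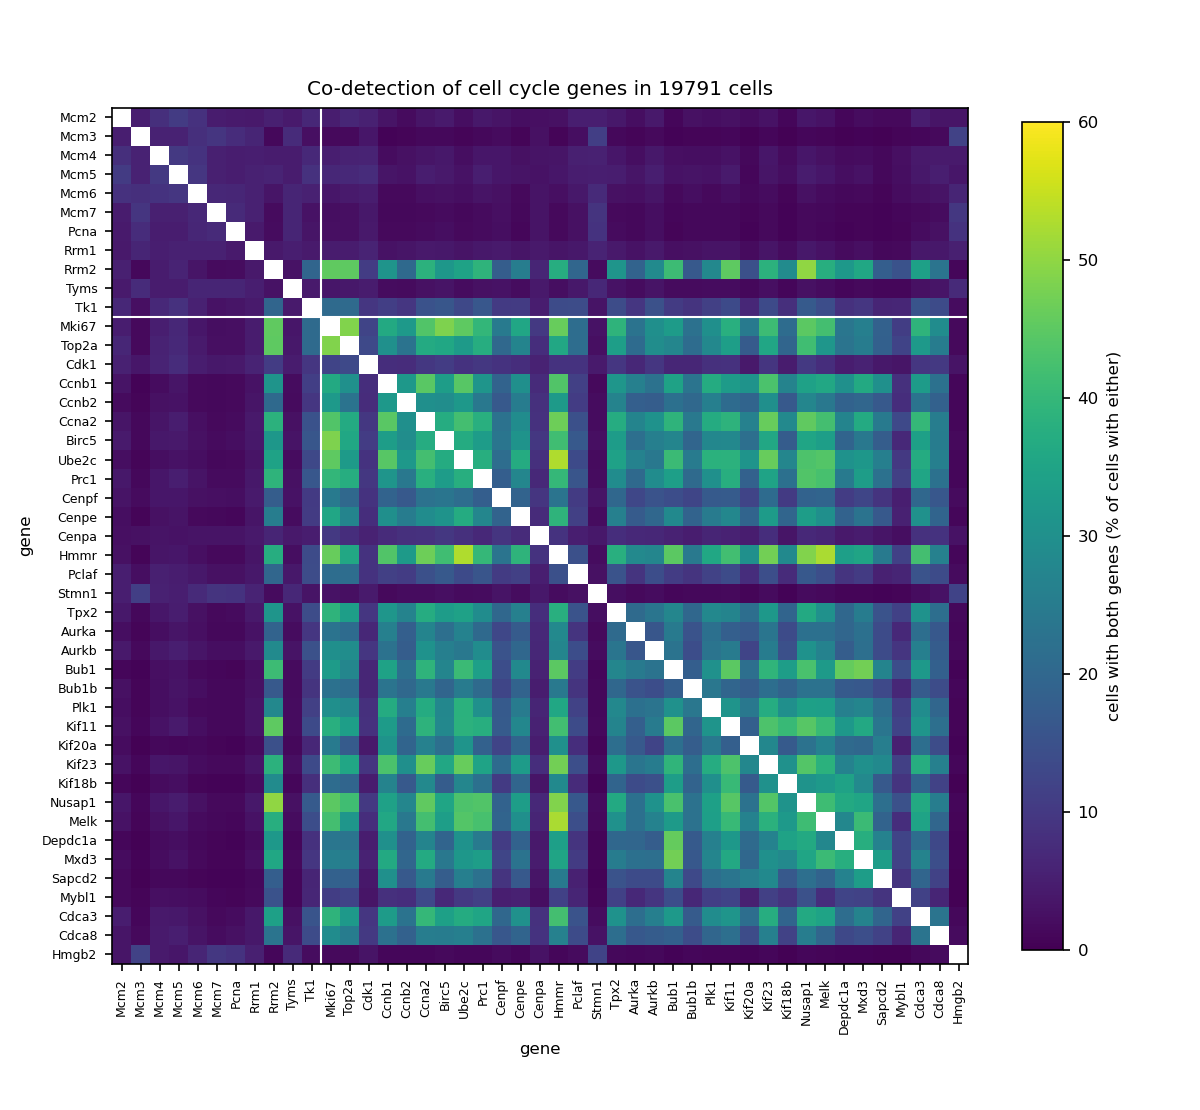
Cells with both genes of a pair as a percentage of the cells with either (colour scale), for the 45 genes in 19791 cells, with white lines between the S and the G2/M list. Rrm2 and, more weakly, Tk1 share cells with the G2/M list, while Cdk1, Cenpa, Stmn1 and Hmgb2 stand out as dark lines within it.

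Within the G2/M gate, 46 cells (24, 8 and 14 in runs 1, 2 and 3) also held at least 2 S anchors and 33 (17, 9 and 7) did not. The first had a median depth of 7394 UMIs and the second of 5928, so shares are given as counted and after thinning each cell to 2000 UMIs, where 46 and 31 cells were left. These values are a description with no test. Cells with S anchors held a median of 18 held-out G2/M list and 4 held-out S list genes, and cells without them 10 and 0. As counted, 26 of the 28 held-out G2/M list genes had the higher share in cells with S anchors, and after thinning 22 had.

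Pclaf differed most between these cells, with a UMI in 95.7% of those with S anchors against 18.2% of the rest, and 69.6% against 6.45% after thinning. By run, 23 of 24, 7 of 8 and 14 of 14 cells with S anchors held Pclaf, against 4 of 17, 1 of 9 and 1 of 7 of the rest. Aurkb was found in 82.6% against 18.2% (37.0% against 3.23% thinned), Cdk1 in 91.3% against 33.3% (50% against 22.6%) and Nusap1 in 73.9% against 24.2% (43.5% against 12.9%). The exact 95% binomial intervals as counted lay apart for these 4 genes and for Prc1, Kif11 and Mxd3. Those intervals pool the cells of the 3 runs, leave the difference in depth in place and were not taken after thinning. After thinning, Prc1 was found in 45.7% against 19.4%, Kif11 in 19.6% against 6.45% and Mxd3 in 19.6% against 3.23%.

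Cenpa went the other way. It was found in 56.5% of cells with S anchors and in 78.8% of the rest, in 37.0% and 64.5% after thinning, and its level was 285 CPM against 559 CPM, although its intervals overlapped. By run, 15 of 24, 5 of 8 and 6 of 14 cells with S anchors held Cenpa, against 14 of 17, 6 of 9 and 6 of 7 of the rest. After thinning, Hmmr (28.3% against 48.4%), Cenpe, Aurka, Bub1 and Depdc1a also had the lower share in cells with S anchors, as did the anchors Birc5, Ube2c, Cenpf and Ccnb2 (23.9% against 41.9% for Ccnb2). Cenpe, Aurka, Bub1 and Depdc1a rested on few thinned cells, at 8 against 6, 6 against 7, 2 against 2 and 3 against 3. As counted, these genes and Hmmr had the higher share in cells with S anchors. Kif20a had the lower share as counted (28.3% against 36.4%), but 6.52% against 6.45% after thinning. No gene with the lower share in cells with S anchors had intervals that lay apart as counted.

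**Figure D5:**
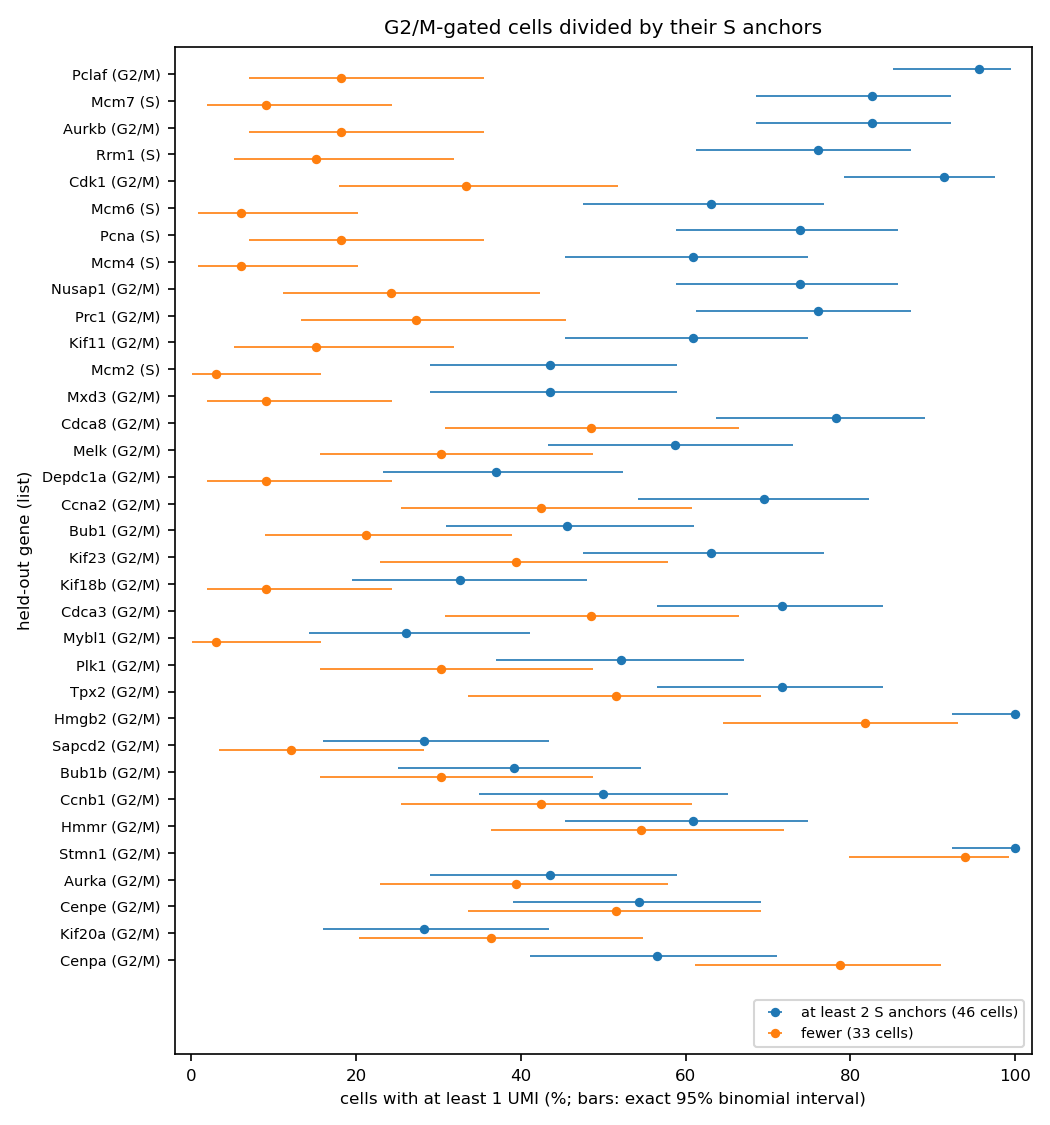
Share of G2/M-gated cells with at least 1 UMI (x axis, percent, as counted, with exact 95% binomial intervals) of each of the 34 held-out genes, for the 46 cells with at least 2 S anchors and the 33 with fewer, ordered by the difference. The intervals of Pclaf, Aurkb and Cdk1 lie apart, and Cenpa at the bottom is the higher in cells with fewer S anchors.

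The G2/M-gated cells carried microglia markers. Of the 79 G2/M-gated cells, 76 (96.2%, and 40, 17 and 19 by run) had at least 4 of the 10 microglia markers, against 99.4% of ungated cells. The summed level of these markers was 20457, 29678 and 17266 CPM in G2/M-gated cells and 28994, 37033 and 29822 CPM in ungated cells, lower in the gated cells of each run. Markers of other cell types were read in the same classes. The monocyte list (7 genes, with Chil3 and F10 at 0 in G2/M-gated cells) was at 88.5, 54.2 and 387 CPM in G2/M-gated and at 10.9, 23.9 and 26.7 CPM in ungated cells, and these values did not overlap. The neural progenitor list was at 18.3, 9.03 and 30.7 CPM against 4.53, 5.57 and 5.42 CPM, also without overlap, from Sox11 and Nes, while the other 8 of its 10 genes, Dcx, Sox2 and Eomes among them, had no UMI in G2/M-gated cells. The part of these lists in the cell cycle values was not tested. The 6 markers of oligodendrocyte precursors had no UMI in G2/M-gated cells, but were at 0.625, 0.586 and 0.512 CPM in ungated cells, so a difference was not detectable at this depth. Border-associated macrophage, T and NK cell and dendritic markers ranged more between runs, for example 3.05, 0 and 639 CPM for the T and NK cell list, of which run 3 held 1 G2/M-gated cell.

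Cells that met the microglia gate and no other numbered 18579, and 64 of them were G2/M-gated (0.344%, or 0.496%, 0.245% and 0.278% by run). With both classes restricted to these cells, all 34 held-out genes were again higher in G2/M-gated than ungated cells, where 8.78% of genes were called higher. Cells with at least 3 of Emp3, Fxyd5 and Tnfsf13b were G2/M-gated in 6 of 88 cases (6.82%, interval 2.54% to 14.3%), 4 of 37, 0 of 18 and 2 of 33 by run. Cells with at least 5 of 10 interferon-induced genes were so in 5 of 156 (3.21%, interval 1.05% to 7.32%), 4 of 71, 1 of 44 and 0 of 41 by run, and 2 cells met both gates. These cells were deeper, with medians of 5738 and 5039 UMIs against 3816, and after thinning the shares were 5.68%, 2.60% and, in microglia alone, 0.267%. The number of cells in each run was too small to order these populations by run.

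Both marker lists stood higher in the summed UMIs of G2/M-gated cells. The summed interferon-induced list was at 1391, 1002 and 565 CPM in G2/M-gated and at 141, 132 and 130 CPM in ungated cells, and the Emp3 list at 330, 361 and 479 CPM against 95.4, 107 and 121 CPM. The classes did not overlap for either list, and the part of these lists in the cell cycle values was not tested. The median G2/M-gated cell held 1 UMI of the interferon-induced list and 2 of the Emp3 list, and the median ungated cell 0 of each. The sums therefore need not describe most cells. The other marker gates held few G2/M-gated cells, with 3 of 146 for MHC class II, 2 of 90 for lipid-associated genes, 2 of 547 for immediate-early genes (513 of the 547 cells came from run 3) and 1 of 171 for border-associated macrophages. S-gated cells numbered 8, 6, 9 and 9 in these 4 gates. The 9 border-associated cells were 5.26% (interval 2.43% to 9.76%), or 6 of 82, 0 of 35 and 3 of 54 by run. The S-gated share of microglia alone was 1.81%, at a median depth of 3816 against 5404 UMIs. No G2/M-gated cell was found among 72 chemokine-rich, 97 astrocyte-marker and 65 choroid-marker cells, where 2, 4 and 1 were S-gated. This allows G2/M-gated shares of up to 4.17%, 3.09% and 4.62% when a count of 0 is taken to allow 3 cells.

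The choroid-marker cells, of which 31 also met the microglia gate, were read beside cells that met the microglia gate alone. Their median depth was 3052 UMIs against 3816. Hmgb2 was found in 7.69% of them (interval 2.54% to 17.0%) against 21.8% of microglia, and Mcm7 in 1.54% (0.0389% to 8.28%) against 9.68%, with intervals that did not overlap. Pcna (7.69% against 7.84%) and Tyms (6.15% against 6.19%) were about equally frequent in both. The part of free RNA in their detection outside the cell cycle gates was not tested. Mcm3 (7.69% against 12.0%), Stmn1 (6.15% against 12.7%) and Cdk1 (6.15% against 1.78%) had overlapping intervals. Mki67 was found in 0.328% of microglia and in none of the 65 cells.

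Male and female cells were told apart by Xist and 4 Y-linked genes, a division that none of the 45 genes entered. Of 8806 cells with Xist alone, 35 were G2/M-gated (0.397%, and 0.547%, 0.284% and 0.394% by run), and of 5349 cells with Y-linked UMIs alone, 23 were (0.430%, and 0.594%, 0.372% and 0.242%). The S-gated shares were 1.98% and 1.98%. None of 37 testable members was called between Xist and Y-linked cells by edgeR, where 0.278% of 11516 genes were called in either direction, and 2 had an unadjusted p under 0.05. DESeq2 called none. Without run 2, Top2a and Prc1 were called lower in Xist cells, by 0.70 and 1.18 on the log2 scale. Cells holding Xist as well as Y-linked UMIs, which can be doublets of male and female cells, made up 7.59% of G2/M-gated, 8.02% of S-gated and 2.52% of ungated cells, and all 34 held-out genes were called higher in G2/M-gated cells without them, where 9.52% of genes were.

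Other genes of the same pathways were read from 3 lists. Of 30 further replication genes, all 30 were higher in G2/M-gated than in ungated cells, 27 of 28 tested were higher in S-gated than in ungated cells and 20 of 24 tested were higher in G2/M-gated than in S-gated cells, beside 9.93%, 1.66% and 12.4% of all genes tested in these comparisons. Among them Ccne2 (cyclin E2) was at 229, 153 and 111 CPM in G2/M-gated and at 0.375, 0.126 and 0.427 CPM in ungated cells, and Dtl, a subunit of a replication-linked ubiquitin ligase, at 88.5, 90.3 and 141 CPM against 0.188, 0.167 and 0.342 CPM. Dtl and Uhrf1, a maintenance factor of DNA methylation, led the S-gated cells, at log2 differences of 6.44 (SE 0.55) and 4.90 (SE 0.55) from ungated cells. Of 48 further mitotic genes, all 47 tested were higher in G2/M-gated than in ungated cells, and 6 of 32 tested were higher in S-gated cells. Genes with few ungated UMIs could be tested only through the gated cells, which set their direction in advance. Examples are Nek2 (22 UMIs in G2/M-gated cells against 0), Aspm (61 against 3) and Pbk (137 against 4). The same limit applies to the rarer replication genes, among them Ccne2, Dtl and Uhrf1.

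Of the 21 regulators of G1 and of cell cycle exit, 7 were higher and 3 lower in G2/M-gated than in ungated cells, where 9.93% of all genes were called higher and 9.2% lower, so the count of lower genes is near that of genes at large. The 4 with the largest rise were inhibitors of cyclin-dependent kinases. Cdkn1a (p21) was at 513, 749 and 473 CPM in G2/M-gated and at 15.6, 49.7 and 31.2 CPM in ungated cells, a log2 difference of 4.19 (SE 0.17). Cdkn2c (p18) was at 269, 451 and 215 CPM against 9.72, 10.2 and 7.73 CPM, and Cdkn2a at 97.6, 108 and 61.4 CPM against 1.72, 1.00 and 0.939 CPM. Neither gene's classes overlapped over the runs. In S-gated cells Cdkn1a stood at 18.9, 44.5 and 26.7 CPM, and its difference from G2/M-gated cells was 4.38 (SE 0.20).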

How the data were processed

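Single-cell RNA of tdTomato+ hippocampal myeloid cells was measured in 3 runs, which the labels put in 1 group. The authors deposited raw UMI counts per gene and barcode. Per the submitters' processing notes they used Cell Ranger, Seurat 4.0 and mm10, and per the file headers the counting software was version 3.0.2 for run 1 and 3.1.0 for runs 2 and 3. How barcodes were selected is not given in the sources used here. The lowest total per barcode was 500, 501 and 500 UMIs.

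Cells were kept with at least 1000 UMIs, 500 genes and at most 10% mitochondrial UMIs, 19791 in all. No doublet caller was run, and cells holding Xist as well as Y-linked UMIs were removed in an alternative. Counts were summed per run and class and tested with edgeR 4.0.16 in R 4.3.3 (glmQLFit and glmQLFTest, TMM, filterByExpr, run as a block, Benjamini-Hochberg over all genes, threshold 0.05), with DESeq2 1.42.0 as an alternative. The prior degrees of freedom were infinite for G2/M-gated against ungated cells, so genes shared 1 estimate of spread and small p-values there say little of single genes. They were 32.0 for S-gated against ungated, 42.9 for G2/M-gated against S-gated and 10.2 for Xist against Y-linked cells. The spread of a single gene over 3 runs thus had little weight in these comparisons too. The script was tested on simulated data. Other values came from Python 3.11.15, and scipy 1.17.1 gave the exact binomial intervals.

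The design asked for at least 20 cells per run and class. Run 2 had 17 G2/M-gated cells, so the minimum was lowered to 7 after the cells had been counted. The sums of a run come from 1 library, and their deviations from the class means correlated at 0.184 to 0.74 across genes, best with their own run each time, so the run numbers pair the sums. To set levels beside each other at 1 depth, cells were thinned to 2000 UMIs, which left out 646. A bound against a class without UMIs used 3 UMIs over the class.

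The 45 genes, the anchors, the marker lists and the pathway lists were chosen with earlier results of these data known. Members were named by role. Of each pathway list, the named genes come from the 5 with the largest change among those called. Of other genes, at most 5 per direction were eligible, with the largest change among those called that changed by 1 or more on the log2 scale, reached 20 CPM in the higher class and kept their direction in all runs, leaving out ribosomal, mitochondrial and unnamed genes. Gene positions and overlaps come from GENCODE M21 (GRCm38) and promoter windows from RefSeq. The marker Clec7a was not used here. Alternatives covered scaling, test, filter on low counts, block, left-out runs, cell filter and gate.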

Additional observations from a re-analysis of the deposited data

Results flagged for a closer look

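Barcodes removed by the cell filters were looked at because they enter no comparison. In run 1, 25 of 262 removed barcodes met the G2/M gate, against 0 of 175 in run 2 and 0 of 148 in run 3. They held 516 to 974 UMIs (median 618), all under the minimum of 1000. None met the microglia gate, and 19 had no UMI of any microglia marker. Their summed levels were 1005 CPM for Mki67, 5322 for S100a8, 5795 for S100a9, 2129 for Camp, 1242 for Ngp and 4376 for Pf4. The 41 G2/M-gated cells kept from run 1 had 983 CPM for Mki67, 12.2 for S100a8, 48.8 for S100a9, 0 for Camp and Ngp and 73.2 for Pf4. S100a8, S100a9, Camp and Ngp are neutrophil genes and Pf4 is a gene of platelets and border-associated macrophages, and all 5 were lower in the kept cells than in the removed barcodes. No group of 4 or more samples exists here in which single runs could be tested for standing apart.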

How the results depend on the processing

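Under 12 of 13 alternatives, every held-out gene that could be tested (31 to 34) was called higher in G2/M-gated than in ungated cells, and leaving out a run also gave 31 to 34. In the other, with G2/M-gated cells meeting the S gate removed, where fewer cells were left, 20 of 26 tested were. Against S-gated cells 29 were called higher and none lower, against 18 called of 21 tested when those cells were removed and 22 of 25 with at least 3 anchors, Mcm6 being called lower in both, 24 of 27 with the gate at 2000 UMIs, and 26 to 30 with a run left out. Reversed directions in that comparison were Mcm4 (-0.15 with at least 3 anchors, -0.19 at 2000 UMIs, -2.05 without the cells meeting the S gate), Mcm6 (-1.49 and -2.26 for the first and the last of these, from an uncalled 0.25, and uncalled at -0.45 at 2000 UMIs and -0.06 without run 1), Mcm7 (-0.40 with at least 3 anchors and -1.26 without those cells) and Pcna (-0.59 for the last). The cause was not tested. In S-gated against ungated cells 9 members were called, and 7 to 12 in the alternatives, 8 to 9 with a run left out. Between Xist and Y-linked cells 1 member was called without a filter on low counts (Prc1, lower by 0.80), and 0 to 2 with a run left out. The removal of cells holding Xist as well as Y-linked UMIs gives no separate value there, since neither class holds such cells. The S-gated share was 1.87%, and 0.247% with at least 3 anchors, 0.583% at 2000 UMIs and 0.375% without Mcm3, which was chosen after seeing the data, as were the restriction to microglia and the minimum of 7 cells.

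Counts over all genes depended more on the settings. G2/M-gated against ungated cells had 2196 calls, 1450 with no replicate block, 1293 by DESeq2, 1090 without run 1 and 477 without cells meeting the S gate. S-gated against ungated cells had 307, 60 with no block, 150 by DESeq2, 172 without run 1, 465 without the filter and 469 at 2000 UMIs. G2/M-gated against S-gated cells had 1232, 662 with no block, 421 by DESeq2, 465 without run 1, 806 without run 3, 246 with at least 3 anchors, 586 at 2000 UMIs and 340 without cells meeting the S gate. Xist against Y-linked cells had 32, 5 with no block, 16 by DESeq2, 166 without the filter, 111 without run 1, 164 without run 2 and 51 with the stricter cell filter of 2000 UMIs and 5% mitochondrial UMIs. Without the replicate block, members called were 34, 7, 28 and 0 in the 4 comparisons, and Pcna and Rrm1 (S-gated against ungated) and Mcm4 (G2/M-gated against S-gated) were lost. In G2/M-gated against ungated cells, the scaling moved the split of calls from 1140 higher and 1056 lower to 1250 and 901 with DESeq2's size factors in edgeR, and DESeq2 moved the median of all genes from -0.14 to 0.55, with all 34 members higher in both. With 17 to 41 G2/M-gated cells per run, depth limits the rarer genes, of which 21 could not be tested in S-gated cells.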

Other observations

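Outside the listed genes, the genes named by the rule as most raised in G2/M-gated against ungated cells were Hist1h1b, Esco2, Ska1, E2f7 and Aunip. Hist1h1b, a replication-dependent linker histone, was at 399.7, 163 and 86.0 CPM in G2/M-gated cells of runs 1, 2 and 3 and at 0.0625, 0.0419 and 0.128 CPM in ungated cells, and had no UMI in S-gated cells. Esco2, an acetyltransferase of sister chromatid cohesion, was at 201, 253 and 111 CPM against 0.125, 0.0837 and 0 CPM. Ska1, a kinetochore protein, had 43 UMIs against 1, E2f7, a repressor of E2F targets, had 30 against 1, and Aunip, an Aurora A partner, had 22 against 1. All of these genes passed the filter on low counts only through G2/M-gated cells, which set their direction in advance.

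The genes named as most lowered in G2/M-gated cells included Ttr and Enpp2, both markers of the choroid plexus. Ttr was at 6.10, 0 and 12.3 CPM in G2/M-gated cells and at 463.7, 892 and 103 CPM in ungated cells, and Enpp2 had no UMI in G2/M-gated cells against 17.9, 44.5 and 3.71 CPM. Of the 7 choroid plexus markers, 5 had no UMI in G2/M-gated cells, and the 65 choroid-marker cells, none of them G2/M-gated, were among the other classes. Gbe1, an enzyme of glycogen synthesis, was at 3.05, 0 and 0 CPM against 19.5, 21.4 and 21.8 CPM. In S-gated cells, Fignl1, a factor of recombination repair, was at 28.7, 33.4 and 14.4 CPM against 1.03, 0.921 and 0.811 CPM in ungated cells, a log2 difference of 4.69 (SE 0.42).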
